A study of Homo sapiens with 5 samples.

Results

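The regions described here are EZH2 domains that were called in HT1376 cells after CPI-0209 and lay on no EZH2 domain of the DMSO cells and on no H3K27me3 domain of either condition. HT1376 is an established human bladder carcinoma line, and CPI-0209 is an inhibitor of the methyltransferase EZH2. The groups were EZH2 ChIP-seq and H3K27me3 ChIP-seq from cells given 250 nM CPI-0209 for 8 days, and EZH2 ChIP-seq and H3K27me3 ChIP-seq from cells given DMSO. The labels' extraction text names 4 days beside 8, and the 8 days given here come from their treatment text. Each of the 4 groups was 1 library of the same line with no replicate, so a difference between CPI-0209 and DMSO cannot be told apart from a difference between libraries. The 1 input library was not analysed here. Each ChIP library is a list of called intervals without read counts, so depth is unknown. Cell identity was not checked, because a list of chromatin intervals does not measure expression.

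Rows of a list that overlapped were merged into domains. Of 27406 EZH2 CPI-0209 domains, 5249 met the rule, which is 19.2% of the list and covered 19.3 Mb. They are called new EZH2 domains. They were chosen by the called intervals themselves, and the rule fixes that they are absent from the EZH2 DMSO list and from H3K27me3, so neither absence is a result. An absent call does not show that EZH2 or the mark was absent. The comparison sets were 5991 EZH2 CPI-0209 domains that overlapped an EZH2 DMSO domain and no H3K27me3 (retained domains), 1896 EZH2 DMSO domains with no EZH2 CPI-0209 and no H3K27me3 (DMSO-only domains), and 5422 EZH2 CPI-0209 domains with no EZH2 DMSO that lay on H3K27me3.

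Polycomb repressive complex 2 (PRC2) methylates lysine 27 of histone H3, and EZH2 is the subunit that carries out the reaction. In mammalian cells PRC2 is recruited mainly to CpG islands, the CpG-rich stretches found at most promoters, and it is usually kept from promoters that are being transcribed. Where PRC2 stays at a CpG island it deposits H3K27me3, which spreads from there and is bound by the second Polycomb complex, PRC1. Inhibitors of this class occupy the methyl donor pocket of the enzyme and block methylation without removing the protein.

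The widest new domains at protein-coding genes included PLXNA1, PTPRF, C1orf210 and NINJ1, and their promoters are shown because, in order of domain width, these were the first 4 genes of the promoter table with a promoter wholly inside the new domain. The sequences are RefSeq promoters of GRCh38.p14, from 250 bases before to 50 after the start, written 5′ to 3′ on the gene's strand. Capitals mark GGGCGG or its reverse complement CCGCCC, the core of the GC box that SP and KLF family factors bind.
PLXNA1 at chr3:126982865-126983164, plus strand: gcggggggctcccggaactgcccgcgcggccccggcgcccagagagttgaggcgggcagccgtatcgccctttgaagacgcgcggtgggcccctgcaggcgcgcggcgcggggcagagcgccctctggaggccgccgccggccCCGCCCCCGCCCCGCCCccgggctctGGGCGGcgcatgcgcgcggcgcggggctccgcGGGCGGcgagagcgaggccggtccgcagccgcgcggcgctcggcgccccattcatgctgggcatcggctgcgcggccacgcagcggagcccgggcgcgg
PTPRF at chr1:43530633-43530932, plus strand: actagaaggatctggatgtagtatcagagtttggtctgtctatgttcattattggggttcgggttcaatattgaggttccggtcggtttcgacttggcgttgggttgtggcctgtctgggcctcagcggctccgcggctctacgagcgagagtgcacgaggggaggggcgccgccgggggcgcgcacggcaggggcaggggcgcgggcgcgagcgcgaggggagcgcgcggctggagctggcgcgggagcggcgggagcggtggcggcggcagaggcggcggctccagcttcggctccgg
C1orf210 at chr1:43285532-43285831, minus strand: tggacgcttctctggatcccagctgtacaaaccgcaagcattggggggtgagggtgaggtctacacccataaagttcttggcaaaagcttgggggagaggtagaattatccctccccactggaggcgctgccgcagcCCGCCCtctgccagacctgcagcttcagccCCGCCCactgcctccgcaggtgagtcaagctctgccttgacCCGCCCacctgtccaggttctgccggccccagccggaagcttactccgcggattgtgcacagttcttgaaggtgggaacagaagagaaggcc
NINJ1 at chr9:93134202-93134501, minus strand: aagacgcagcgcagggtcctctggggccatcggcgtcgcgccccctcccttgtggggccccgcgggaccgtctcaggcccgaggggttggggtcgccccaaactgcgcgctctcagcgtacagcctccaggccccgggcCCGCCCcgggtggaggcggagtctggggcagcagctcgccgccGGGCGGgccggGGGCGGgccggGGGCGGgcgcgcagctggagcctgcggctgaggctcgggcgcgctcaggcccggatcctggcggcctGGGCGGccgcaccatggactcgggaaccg

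The PLXNA1 promoter held 54 CpG dinucleotides in its 300 bases and 5 marked matches. The NINJ1 promoter held 38 CpGs and 5 matches. The PTPRF promoter held 37 CpGs and 0 matches, so a CpG-rich promoter inside a new domain need not carry the GC box core. The C1orf210 promoter held 12 CpGs and 3 matches, the lowest CpG count of these promoters.

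New EZH2 domains were narrow, which the rule favours, since a wider domain has more room to overlap another list. How far the rule set the widths was not tested. Their median width was 2.6 kb, with quartiles of 1.6 kb and 4.4 kb and a range of 0.2 to 48.4 kb. Retained domains had a median of 3.2 kb, DMSO-only domains of 4.0 kb, and new domains on H3K27me3 of 4.0 kb. The median of new domains was below that of retained domains on 21 of 23 chromosomes and equal to it on 2. Most new domains, 4947 of 5249 (94.2%, 93.6 to 94.9), came from 1 row of the list, against 57.6% (56.3 to 58.8) of retained domains and 95.9% (95.0 to 96.8) of DMSO-only domains. Brackets throughout are exact (Clopper-Pearson) 95% binomial limits, which cover counting error only and treat neighbouring domains or genes as independent, which they are not. The EZH2 list was longer in CPI-0209, with 43522 rows and 27406 domains, than in DMSO, with 24311 rows and 18639 domains. Counted only where 2 rows of the EZH2 CPI-0209 list overlapped, 358 stretches met the rule. With that list shortened to the EZH2 DMSO length by its widest rows, 1409 domains did. That is fewer than the 1896 DMSO-only domains of the full lists, which were not recounted against the shortened list. The shortening kept no row narrower than 4.2 kb, so it dropped narrow new domains by width. The number of new domains therefore depends on which rows of the list are counted.

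The rule keeps new EZH2 domains off the EZH2 DMSO domains but sets no distance. The median distance to the nearest EZH2 DMSO domain was 30.2 kb, with quartiles of 11.2 kb and 73.2 kb. Within 5 kb of an EZH2 DMSO domain lay 612 of them (11.7%, 10.8 to 12.6), and 942 (17.9%, 16.9 to 19.0) lay 100 kb or farther away. With the list shortened to the EZH2 DMSO length, 17.2% were that near. The median distance to H3K27me3 was 42.4 kb in DMSO. It was 82.4 kb in CPI-0209. The H3K27me3 list was shorter in CPI-0209, with 15838 domains over 113.8 Mb, than in DMSO, with 21641 domains over 315.1 Mb. Regions of any kind tend to lie farther from a shorter list, so the larger distance is not a trait of the new domains alone. At the edge of the rule, 227 new domains lay within 1 kb of a domain of another list, with a median width of 3.2 kb, and 811 EZH2 CPI-0209 domains were left out although the other lists covered 1 kb or less of them, with a median width of 1.0 kb.

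The share that covered a gene start went with distance, and the share near a gene end did so less. Of the new domains within 5 kb of an EZH2 DMSO domain, 34.2% (30.4 to 38.1) covered a protein-coding gene start. Of those 100 kb or farther away, 53.3% (50.05 to 56.5) did. Near a protein-coding end lay 55.9% (51.8 to 59.9) and 62.6% (59.5 to 65.7) of the same classes, with limits that overlap. The isolated domains were also the narrowest, with a median of 1.8 kb at 100 kb or more and of 3.4 kb within 5 kb. New domains occurred near each other too, since 44.8% (43.4 to 46.1) had another new domain within 50 kb.

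Gene ends were the most frequent site of new EZH2 domains. Within 2 kb of an end of a protein-coding RefSeq gene record lay 3186 (60.7%, 59.4 to 62.0). A further 608 (11.6%, 10.7 to 12.5) lay within 2 kb of an end of another record, such as a lncRNA or pseudogene. Inside protein-coding records away from their ends lay 840 (16.0%, 15.0 to 17.0), inside other records 110 (2.10%), and in no gene record 505 (9.62%, 8.84 to 10.5). The share near protein-coding ends was lower than the 77.9% (76.8 to 78.9) of retained domains, and lower on 23 of 23 chromosomes. It was higher than the 22.4% (20.5 to 24.3) of DMSO-only domains and the 18.7% (17.6 to 19.7) of new domains on H3K27me3. Of all EZH2 CPI-0209 domains 47.8% (47.2 to 48.4) lay near such an end. Of the 10744 that overlapped both an EZH2 DMSO domain and H3K27me3, 39.4% (38.5 to 40.4) did. EZH2 domains called in CPI-0209 alone and in DMSO alone, both outside H3K27me3, thus lay in different parts of the gene map.

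**Figure D1:**
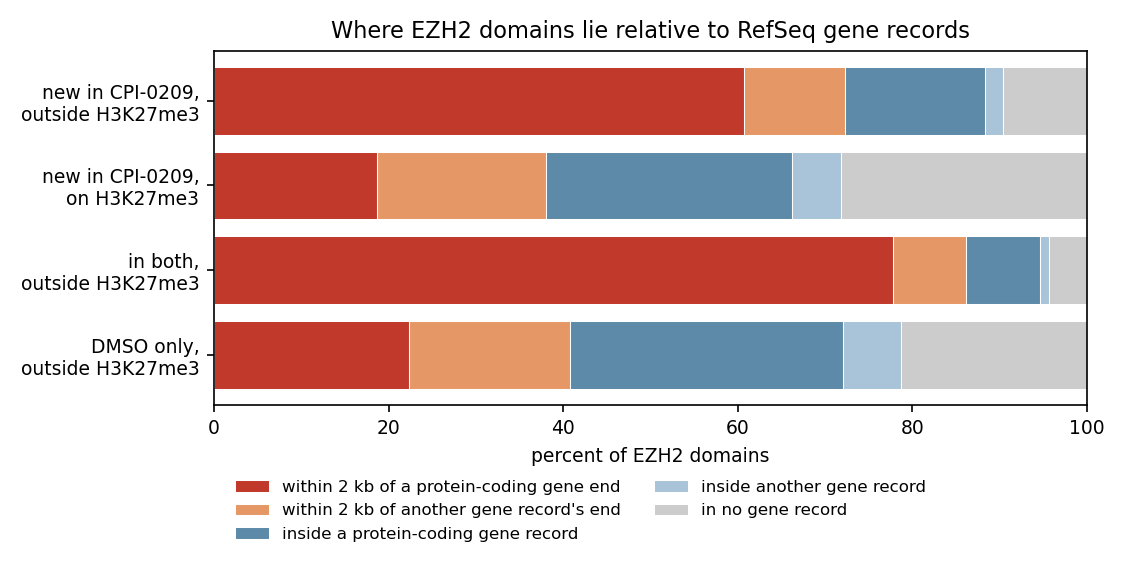
Each bar is a set of EZH2 domains, split by where they lie relative to RefSeq gene records, in percent of the set. New domains outside H3K27me3 lay within 2 kb of a protein-coding gene end in 60.7%, against 18.7% of new domains on H3K27me3, 77.9% of domains present in both conditions and 22.4% of DMSO-only domains. The 10744 EZH2 CPI-0209 domains on both EZH2 DMSO and H3K27me3 are not drawn.

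Shares near a protein-coding end were also taken within width classes. Among new domains of 2 to 4 kb, 64.4% (62.2 to 66.5) lay near a protein-coding end, against 80.7% (79.1 to 82.2) of retained domains, 23.4% (20.3 to 26.7) of DMSO-only domains and 17.2% (15.5 to 19.0) of new domains on H3K27me3 of the same width. Among domains of 8 kb and wider the share was 58.9% (54.3 to 63.5) for new domains, 75.1% (71.8 to 78.2) for retained domains, 18.7% (14.8 to 23.2) for DMSO-only domains and 25.2% (22.5 to 28.2) for new domains on H3K27me3. In that class the order of the last 2 sets was the reverse of that over all widths. Among domains made of 1 row, 59.5% (58.1 to 60.9) of new and 74.2% (72.8 to 75.7) of retained domains lay near a protein-coding end.

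Strand was known for 15811 protein-coding genes, those in the RefSeq promoter table. Of 3166 such genes with a new domain at an end, 2307 (72.9%, 71.3 to 74.4) had it at the start alone, 483 (15.3%, 14.0 to 16.6) at the 3′ end alone and 376 (11.9%, 10.8 to 13.1) at both. Retained domains were at the start alone in 77.5% (76.3 to 78.6) and at the 3′ end alone in 6.68% (6.004 to 7.40). New domains thus touched the 3′ end alone more often than retained ones. The rule bears on this difference, since a gene start under an EZH2 DMSO or H3K27me3 domain leaves less room there for a new domain. Of the 3859 protein-coding genes with a new domain at an end, 806 had EZH2 DMSO at an end and 487 also had a retained domain. How much of the difference the rule makes was not tested. A gene's 3′ end can lie beside the start of its neighbour, and 828 of the 3186 domains near protein-coding ends (26.0%, 24.5 to 27.5) touched ends of 2 or more genes.

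Coverage by new domains was centred on the start. They covered 15.9% of 15811 gene starts at the start itself, 1.91% of positions 5 kb upstream and 2.005% of positions 5 kb downstream. Retained domains covered 29.2% of starts and DMSO-only domains 1.88%. New domains over a single gene start reached a median of 1.04 kb upstream and 1.28 kb downstream, and retained ones 1.32 kb and 1.59 kb. Of new domains that covered a protein-coding start, 26.5% (24.7 to 28.3) also held starts on the opposite strand, as divergent promoters do, against 36.4% (34.9 to 37.9) of retained domains.

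**Figure D2:**
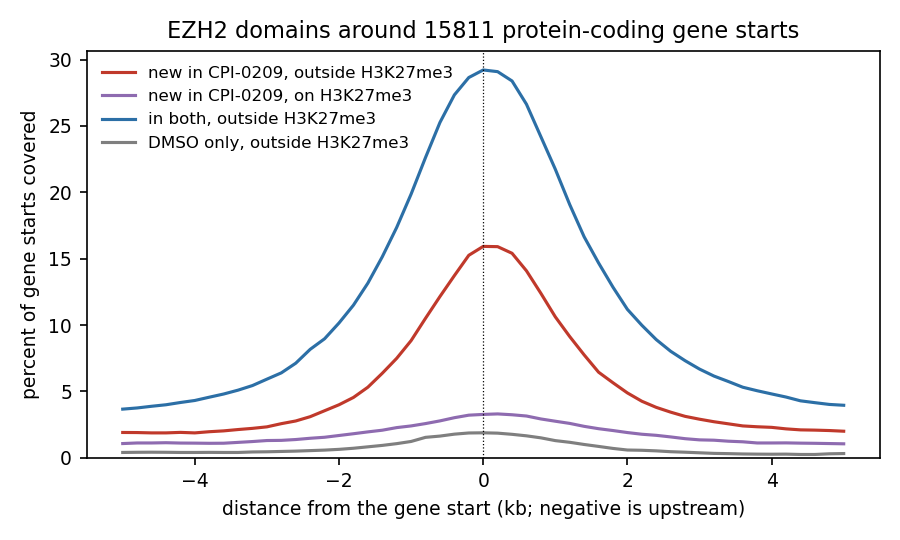
Percent of 15811 protein-coding gene starts (1 per gene, the outermost) covered by each set of EZH2 domains, by distance in kb from the start, with upstream negative. New domains outside H3K27me3 peaked at 15.9% on the start, retained domains at 29.2%, DMSO-only domains at 1.88%.

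CpG content of promoters went with new EZH2 domains. Of 22131 protein-coding RefSeq promoters, 3114 (14.1%) lay wholly in a new domain. These had a median of 9.33 CpGs per 100 bases and a median GC content of 67.7%. Promoters in retained domains had 9.0 CpGs and 66.3% GC. Promoters in DMSO-only domains had 6.67 CpGs and 58.0% GC, and promoters that touched none of the 4 lists had 1.67 CpGs and 50.3% GC. Over all promoters the medians were 7.0 CpGs and 62.3% GC. Read the other way, 2.93% (2.53 to 3.38) of promoters with under 3 CpGs per 100 bases lay in a new domain, and 24.2% (22.8 to 25.6) of those with 12 or more did. For retained domains the share was 43.8% (42.3 to 45.2) at 9 to 12 CpGs and 37.0% (35.4 to 38.6) at 12 or more. For DMSO-only domains it was 3.32% (2.81 to 3.88) at 6 to 9 and 0.635% (0.403 to 0.951) at 12 or more. New domains were therefore most frequent in the most CpG-rich class, and DMSO-only domains least frequent there. GC content also affects how well DNA is amplified and sequenced, and its part in the difference between the libraries was not tested.

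**Figure D3:**
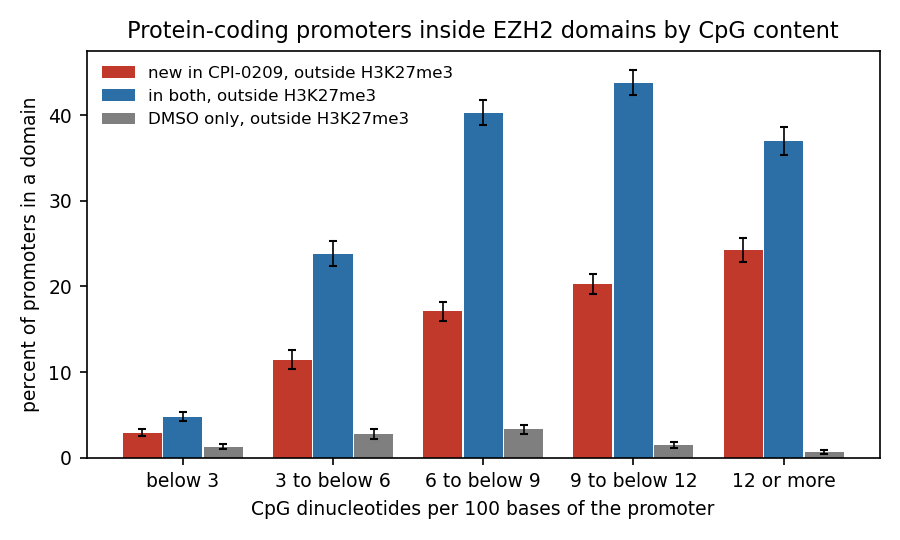
Percent of protein-coding promoters that lie wholly in a domain of each set, by CpG dinucleotides per 100 bases of the promoter; bars on the columns are exact 95% binomial limits. The share in new domains was 2.93% in the lowest class and 24.2% in the highest, while the share in DMSO-only domains was 0.635% in the highest.

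Motif letters were counted on both strands of the promoters, each motif on its own, so matches of different motifs may overlap. GGGCGG was found in 78.7% (77.3 to 80.2) of promoters in new domains, as at PLXNA1 and NINJ1 above, 73.7% (72.6 to 74.8) of those in retained domains, 51.0% (46.0 to 55.9) of those in DMSO-only domains and 56.3% of all promoters. The share also went with CpG content. Under 3 CpGs per 100 bases it was 26.4% (20.1 to 33.4) in new domains and 22.6% (17.9 to 27.7) in retained domains, against 10.8% over all promoters. At 6 to 9 CpGs it was 75.3% (72.1 to 78.3) in new and 68.3% (66.1 to 70.4) in retained domains, against 68.9% over all promoters. At 9 to 12 CpGs the shares were 86.0% (83.6 to 88.2) in new and 83.5% (81.8 to 85.1) in retained domains and 84.2% over all promoters. At 12 or more they were 95.6% (94.0 to 96.8) in new, 92.7% (91.2 to 94.0) in retained and 69.6% (47.1 to 86.8) in DMSO-only domains, the last over 23 promoters. Over all promoters the share at 12 or more was 93.6%. At 3 to 6 CpGs it was 54.7% (49.6 to 59.8) in new and 49.1% (45.6 to 52.7) in retained domains, against 45.9% over all promoters. DMSO-only domains gave 8.86% (3.64 to 17.4) under 3 CpGs and 50.5% (39.9 to 61.2) at 3 to 6. They gave 58.7% (50.3 to 66.6) at 6 to 9 and 78.5% (66.5 to 87.7) at 9 to 12. The point share in new domains was thus above that over all promoters in each class, by less at 9 CpGs and more. At 9 to 12 CpGs its limits included the share over all promoters. CCGGAAGT, the site of ETS family factors, was found in 7.55% (6.64 to 8.53) of promoters in new domains, 9.36% (8.65 to 10.1) of those in retained domains, 16.7% (13.2 to 20.6) of those in DMSO-only domains and 5.34% of all. Within CpG classes, new domains gave 0% against 0.467% of all promoters under 3 CpGs and 5.26% against 4.44% at 3 to 6. They gave 10.1% against 10.2% at 6 to 9 and 8.54% against 7.71% at 9 to 12. At 12 or more they gave 6.84% against 5.49%. In each class the limits of new domains included the share over all promoters. TATAAA was found in 3.85% (3.21 to 4.59) of promoters in new domains and 9.46% of all. TGANTCA, the AP-1 site, was found in 3.50% (2.88 to 4.21) and 6.15%. The other motifs searched gave 33.2% against 34.6% of all promoters for CCAAT, 10.3% against 8.34% for CACGTG, 3.11% against 2.26% for TGACGTCA, 5.07% against 3.74% for GCGCATGC (an NRF1 core) and 4.59% against 3.54% for AAGATGGC (a YY1 core). These matches describe the letters in the windows and do not show binding.

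By the width of the domain, the first gene was PLXNA1, a semaphorin receptor. Its new domain measured 48.4 kb (chromosome 3, 126975801 to 127024200), covered the gene's start, lay 36.4 kb from EZH2 in DMSO and 2.0 kb from DMSO H3K27me3. PTPRF, a receptor-type tyrosine phosphatase, had a domain of 35.4 kb (chromosome 1, 43519401 to 43554800) that lay 1.4 kb from an EZH2 DMSO domain and 205.2 kb from DMSO H3K27me3. C1orf210 shared a domain of 31.0 kb with its neighbour TMEM125 (chromosome 1, 43264601 to 43295600). These domains differed in their surroundings, since only the PTPRF domain lay within 5 kb of EZH2 in DMSO and only the PLXNA1 domain lay within 5 kb of H3K27me3.

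NINJ1, which encodes ninjurin 1, a protein of plasma membrane rupture, had a domain of 30.0 kb over its start (chromosome 9, 93116201 to 93146200). DVL1, a transducer of WNT signals, shared a domain of 27.6 kb with CPTP, INTS11 and TAS1R3 (chromosome 1, 1321401 to 1349000). ABCF1 and RBM38, an RNA-binding protein, had domains of 25.4 kb and 24.6 kb over their starts. The remaining wide domains lay at other gene ends: 30.4 kb at SCRIB, a cell polarity protein, with PUF60 and NRBP2, 27 kb at NSMCE1 and KDM8, 27 kb at ABHD12 and PYGB, 25.6 kb at SCX, BOP1 and MROH1, and 25 kb across the adjoining ends of PKD1 and TSC2 (chromosome 16, 2069801 to 2094800). Among the 5 widest new domains, 1 touched no protein-coding gene end. It measured 38.2 kb (chromosome 16, 11380801 to 11419000), overlapped LOC105371082, LOC400499 and LOC100420951, and lay 1.8 kb from DMSO H3K27me3. Each of these wide domains came from 1 row of the list.

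At the level of genes, 3859 of 19970 protein-coding records (19.3%) had a new domain within 2 kb of an end, 481 of them at both ends. EZH2 was called at neither end in DMSO at 3053 of the 3859 (79.1%), and at 1 end or more at 806. H3K27me3 was called at an end in either condition at 462, away from the new domain. A further yardstick was the 7457 genes with none of the other 3 lists at an end, of which 2844 (38.1%) had a new domain. Of other records, new domains overlapped 2.48% (1.25 to 4.40) of 443 tRNA genes, against 25.7% for retained domains. They overlapped 0.649% (0.0164 to 3.56) of 154 snRNA genes, against 20.1% for retained domains. Transcribed pseudogenes gave 9.23% (7.68 to 11.0) and 6.90%, and lncRNA records 6.66% (6.30 to 7.03) and 9.81%. Genes of the small RNAs of splicing and translation thus seldom lay under new domains. The rule bears on this, since a gene under an EZH2 DMSO or H3K27me3 domain leaves less room for a new one. An EZH2 CPI-0209 domain of any kind overlapped 61.4% of the tRNA and 27.3% of the snRNA genes. How far the rule set the low shares was not tested. Low shares were also found for snoRNA genes (0.669%) and pseudogenes (0.993%), while protein-coding records gave 21.5% (21.0 to 22.1).

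Gene lists were described by their counts beside these shares, without a test. Of 29 lists, 15 had a share above 19.3%. Among 14 genes of PRC2 and the H3K27 demethylases, 5 had a new domain at an end (35.7%, 12.8 to 64.9). The domain covered the start of EZH1, the second PRC2 methyltransferase, with 1.0 kb. It covered the start of RBBP7, a histone-binding subunit, with 2.6 kb, and that of KDM6A, the demethylase UTX, with 2.4 kb. The KDM6A domain (chromosome X, 44872401 to 44874800) was isolated, 746.8 kb from EZH2 in DMSO and 33.8 kb from DMSO H3K27me3. PHF1, an accessory subunit, and KDM6B, the demethylase JMJD3, had new domains of 2.2 kb and 3.4 kb that lay beyond the gene record and covered starts of neighbours but not their own. KDM6B also carried EZH2 in DMSO, and H3K27me3 in both conditions, at an end. EZH2 itself, EED, RBBP4, JARID2 and MTF2 had retained domains. SUZ12, AEBP2 and EZHIP had no EZH2 call at either end in CPI-0209 or DMSO, and the EZH2 call at PHF19 in CPI-0209 was not among the new domains.

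Other chromatin genes had new domains at similar shares. PRC1 gave 6 of 19 (31.6%, 12.6 to 56.6), and the domain covered the start of RYBP, PCGF3, PCGF6, PHC3 and KDM2B but lay past the end of PCGF2. At RYBP, a subunit of variant PRC1, it measured 2.6 kb, came from 2 rows and lay 108.4 kb from EZH2 in DMSO. Subunits of the SWI/SNF remodelling complexes gave 9 of 25 (36.0%, 18.0 to 57.5), with 15.2 kb at BRD9, 15.0 kb beside SMARCD1, 4.2 kb over the start of ARID1B and 3.8 kb at DPF2. Other writers and erasers gave 11 of 35 (31.4%, 16.9 to 49.3), with domains over the starts of KMT2B (5.2 kb) and KMT2C (2.8 kb), which methylate histone H3 lysine 4, and at DNMT3A (5.6 kb) and KAT2A (4.6 kb). Among genes with none of the other lists at an end, 38.1% had a new domain. Of such PRC1 genes 5 of 6 had one (35.9 to 99.6%), and of SWI/SNF genes 5 of 8 (24.5 to 91.5%), with limits that include 38.1%. Of the other writers and erasers 10 of 12 had one (51.6 to 97.9%). High shares were not particular to chromatin genes, since proteasome subunits gave 10 of 15 and translation initiation factors 11 of 17. Splicing factors gave 6 of 18, below 38.1%. The limits of each of these 4 lists included 19.3% when all their genes were counted. At PCGF2, BRD9 and DNMT3A an end also carried EZH2 in DMSO.

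Genes of DNA repair, the cell cycle and tumour suppression had point shares above 19.3%, with limits that included it. DNA repair genes gave 12 of 35 (34.3%, 19.1 to 52.2), with domains of 3.2 to 4.4 kb over the starts of XRCC3, XPA, ERCC1 and FANCA. Of the 13 repair genes with none of the other lists, 10 had a new domain. Cell cycle genes gave 11 of 40 (27.5%, 14.6 to 43.9), with 15.6 kb at MCM2, a subunit of the replicative helicase, 6.0 kb at MYBL2, 4.8 kb at E2F1 and 3.6 kb at E2F2, each over the gene's start. Tumour suppressors and CDK inhibitors gave 8 of 28 (28.6%, 13.2 to 48.7), with 25 kb at the end of TSC2, 9.2 kb at STK11, 3.0 kb over the start of CDKN1B and 2.6 kb beyond an end of CDKN2A. At CDKN1B, CDKN2A, E2F1 and ERCC1 an end also carried EZH2 in DMSO, so EZH2 was called near these genes in both conditions.

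Among the families of gene expression, respiration and protein turnover, the cytosolic ribosomal proteins had limits below 19.3%, and the limits of the others included it. Proteasome subunits gave 13 of 39 (33.3%, 19.1 to 50.2), with 15.0 kb at PSMA7 and 4.0 kb over the start of PSMD13. RNA polymerase and Mediator subunits gave 18 of 61 (29.5%, 18.5 to 42.6), mitochondrial ribosomal proteins 17 of 77 (22.1%, 13.4 to 33.0) and translation initiation factors 12 of 55 (21.8%, 11.8 to 35.0). Housekeeping genes gave 7 of 36 (19.4%, 8.19 to 36.0), respiratory complex I subunits 6 of 36 and splicing factors 10 of 73. Cytosolic ribosomal proteins gave 7 of 83 (8.43%, 3.46 to 16.6), and of the 4 widest of these only the RPL24 domain covered the gene's own start. In these families many genes already carried EZH2: a retained domain was at an end of 60 of the 83 ribosomal protein genes and 28 of the 36 housekeeping genes. EZH2 was called in DMSO at an end of 74 of the 83 cytosolic ribosomal protein genes. Of the 9 with none of the other lists, 5 had a new domain (55.6%, 21.2 to 86.3), with limits that include the 38.1% of all such genes. How far the rule set the low share of the 83 was not tested. Of the 6 housekeeping genes with none of the other lists, 6 had a new domain, among them EEF2 (15.6 kb) and GUSB (3.0 kb).

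Zinc finger genes, many of which encode repressors with a KRAB domain, gave 136 of 509 (26.7%, 22.9 to 30.8), with limits above 19.3%. Among the 262 zinc finger genes with none of the other lists the share was 42.0% (35.9 to 48.2), with limits that include 38.1%. The widest were at ZNF598 (15.0 kb), ZNF593 (13.2 kb, beyond an end), ZNF316 (10.4 kb) and ZNF341 (8.6 kb).

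The limits of the immune lists included the 19.3% of all genes. Antigen presentation gave 7 of 27 (25.9%, 11.1 to 46.3), with domains over the starts of CD74 (11.2 kb), HLA-G (9.2 kb) and HLA-F (8.0 kb), and 3.6 kb at NLRC5, the activator of MHC class I genes. TNF and NF-κB signalling gave 10 of 31 (32.3%, 16.7 to 51.4), with domains over the starts of TNFAIP3 (4.8 kb), IKBKE (5.4 kb) and TRAF1 (4.8 kb). Interferon response genes gave 6 of 36 (16.7%, 6.37 to 32.8), with domains over the starts of STAT2, ISG15 and OAS3 and at IRF3, MX1 and OASL. Ligands of natural killer cell receptors gave 1 of 12, NECTIN2 (2.6 kb), which also had EZH2 at an end in DMSO.

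Olfactory receptor, HOX, developmental transcription factor and replication-dependent histone genes had few new domains. Of the olfactory receptor genes 0.510% (0.0618 to 1.83) had a new domain, namely OR2I1 and OR52A1. Of the 341 with none of the other lists, 0.587% (0.0711 to 2.10) had one, beside 38.1% of all such genes. An EZH2 CPI-0209 domain of any kind was at an end of 21 olfactory receptor genes, and a retained domain at an end of 0. How far the rule set the low share was not tested. Of HOX genes 0 of 39 had a new domain, with an exact upper limit of 9.03%, but all 39 carried H3K27me3 and EZH2 in both conditions, so few domains at them could meet the rule. Developmental transcription factors gave 3 of 70 (4.29%, 0.893 to 12.02), among them PAX8 with 4.0 kb over its start and FOXC1 with 5.6 kb at an end, and 65 of the 70 carried H3K27me3 at an end in DMSO. Replication-dependent histone genes gave 2 of 69 (2.90%, 0.353 to 10.1), H4C11 and H2BC5, while 45 had a retained domain and 57 had EZH2 in DMSO at an end. Of the 12 histone genes with none of the other lists, 1 had a new domain (8.33%, 0.211 to 38.5), with limits that include 38.1%.

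Epithelial, receptor kinase and stress lists had point shares below 19.3%, but the limits of each included it. Among genes with none of the other lists at an end, 2 of 5 luminal genes, 2 of 9 basal and squamous genes, 3 of 35 keratins, 4 of 6 receptor tyrosine kinases and 3 of 5 stress genes had a new domain, beside 38.1% of all such genes. Luminal urothelial genes gave 2 of 25 (8.0%, 0.984 to 26.0), UPK3A and UPK3B, which encode uroplakins of the bladder surface, with 1.0 kb and 1.6 kb. Basal and squamous genes gave 3 of 27 (11.1%, 2.35 to 29.2), LAMB3, S100A8 and S100A9, with 9.2 kb, 1.4 kb and 9.2 kb over their starts. The S100A8 and S100A9 domains lay 0.4 kb from DMSO H3K27me3. Keratins gave 5 of 55 (9.09%, 3.02 to 19.95), KRT71, KRT82, KRT83, KRT86 and KRT23. Receptor tyrosine kinases gave 4 of 35 (11.4%, 3.20 to 26.7), namely MST1R, TYRO3 and ROR1 over their starts and PDGFRB at an end. Stress and immediate early genes gave 4 of 33 (12.1%, 3.403 to 28.2), EGR1 and DNAJB1 over their starts, HMOX1 and ZFP36. Of 13 markers of bladder epithelium 0 had a new domain, with an exact upper limit of 24.7%. Of 5 fibroblast markers 0 had one, and of 5 blood markers 0, each with an exact upper limit of 52.2%. Of 4 endothelial markers CDH5 had one.

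**Figure D4:**
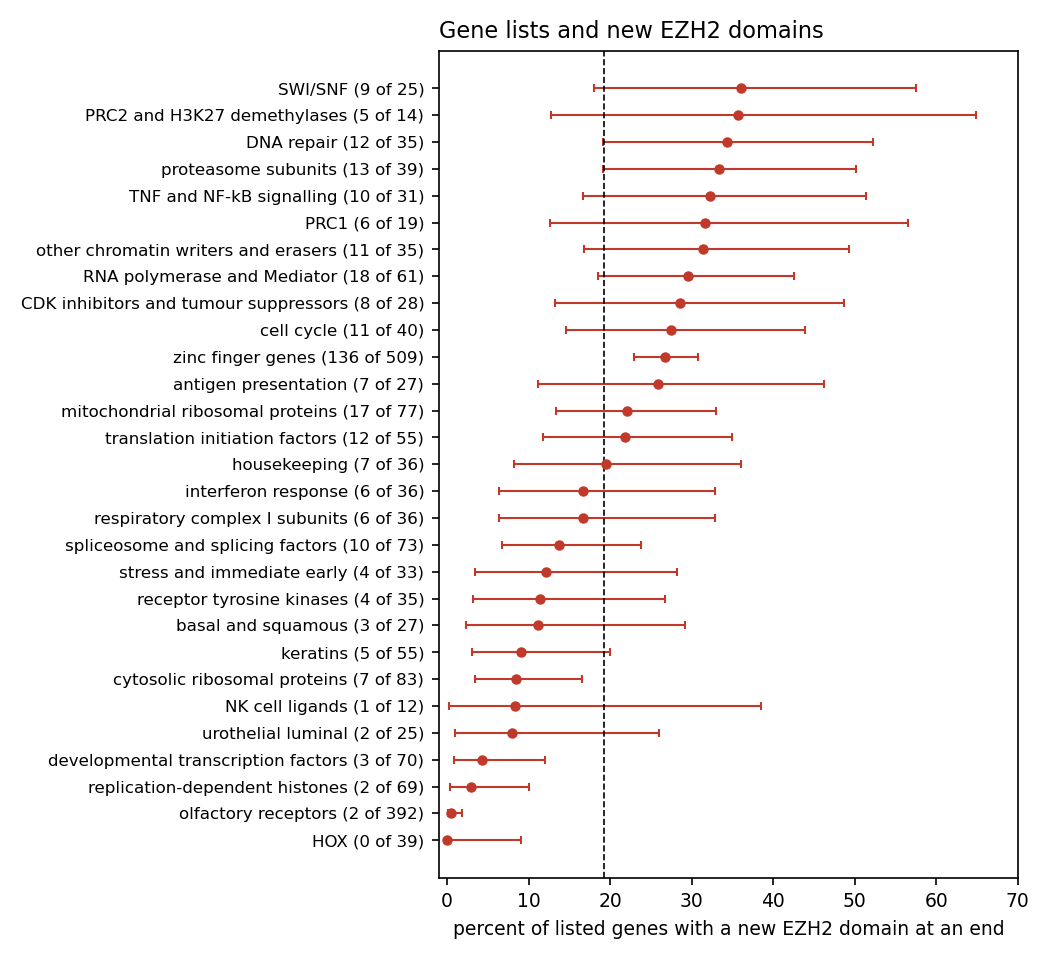
Percent of the genes of each list with a new EZH2 domain within 2 kb of an end, with exact 95% binomial limits and the counts beside the names; the dashed line is the 19.3% of all protein-coding genes. The points run from 36.0% for SWI/SNF subunits to 0 of 39 for HOX genes, and the limits of most lists cross the line.

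The share of EZH2 CPI-0209 domains that were new and outside H3K27me3 varied by chromosome. It was 31.4% (27.7 to 35.4) on the X chromosome, with 183 of 582 domains, and 30.5% (28.3 to 32.7) on chromosome 19, with 521 of 1708. On chromosome 18 it was 11.4% (9.03 to 14.1), with 74 of 651, and on chromosome 20 it was 12.7% (10.6 to 15.0). X and chromosome 19 stood above the other chromosomes, whose highest share was 23.9% (21.1 to 26.8) on chromosome 22. The X domains had a median of 1.6 kb and lay near protein-coding ends in 71.6%. Those of chromosome 19 had a median of 2.4 kb and lay near protein-coding ends in 67.4%. Counted by genes the 2 chromosomes differed: a new domain was at an end of 29.7% of 1451 protein-coding genes on chromosome 19 and 17.8% of 848 on X.

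**Figure D5:**
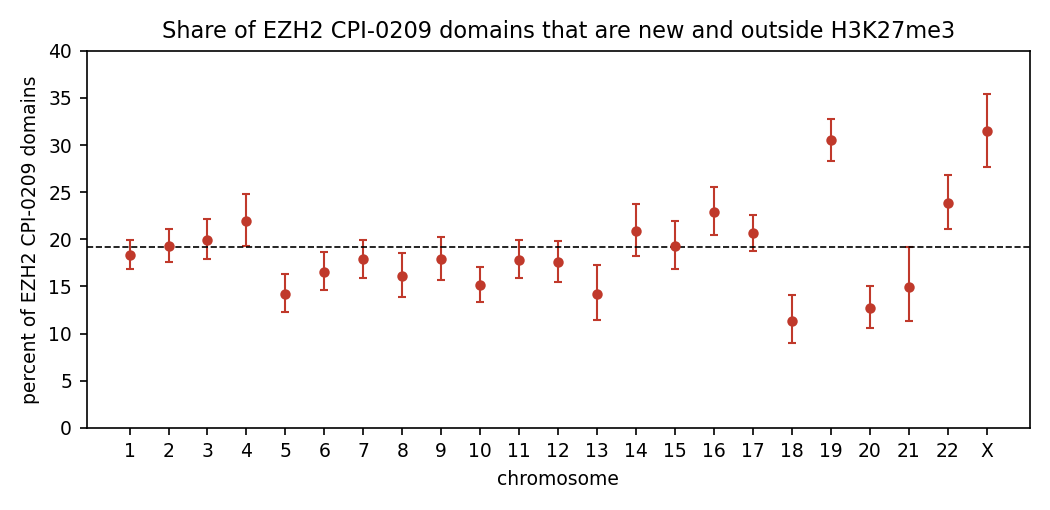
Percent of the EZH2 CPI-0209 domains of each chromosome that are new and outside H3K27me3, with exact 95% binomial limits; the dashed line is the 19.2% of the whole list. X (31.4%) and chromosome 19 (30.5%) are highest and chromosome 18 (11.4%) is lowest.

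New domains occurred in 1682 bins of 1 Mb, with a median of 2 per occupied bin. The most, 25 of 35 EZH2 CPI-0209 domains, lay on chromosome 22 between 46000001 and 47000000, where 9 of 11 protein-coding genes had one at an end. Next came chromosome 17 between 81000001 and 82000000 with 24, chromosome 19 between 18000001 and 19000000 with 24 and between 1000001 and 2000000 with 23, and chromosome 11 between 65000001 and 66000000 with 22. The chromosome 22 bin held few genes for its domains, while the chromosome 11 bin held 49 protein-coding genes, of which 23 had a new domain. Gene copy number of this cell line was not measured here.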

How the data were processed

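Per the labels, chromatin of formaldehyde-fixed HT1376 cells was immunoprecipitated with antibodies to EZH2 and to H3K27me3 by a service provider. The submitters' processing notes name BWA, SICER and hg38; versions, settings and the control used are not given in the sources used here. Per the file headers, the authors deposited chromosome, start and end of each interval; there is no score, count or p-value, so neither depth nor strength could be weighed. Starts and widths are multiples of 200 bp, ends are inclusive, and coordinates are printed counting from 1. What overlapping rows of a list stand for is not stated.

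With Python 3.11.15, pandas 2.3.3 and scipy 1.17.1, overlapping rows were merged, the membership rule was applied, and domains were set against RefSeq gene records and promoters of GRCh38.p14 (windows of 2 kb at both gene ends, since the gene table gives no strand; the promoter table covers 79.2% of protein-coding genes). No test between conditions was possible. Overlap and distance code was tested on simulated intervals.

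The regions, gene lists and tests were chosen with earlier results of these data known. Named genes were the 12 widest new domains at a protein-coding end, the 5 widest anywhere, listed genes (all if 6 or fewer, otherwise the 4 with the widest domains) and all PRC2 genes, with neighbours that share a domain; some are not reported here. All listed genes matched.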

Additional observations from a re-analysis of the deposited data

How the results depend on the processing

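Each group had 1 library and the files hold no depth, so how far the new domains depend on sequencing depth or background could not be measured. No paired analysis was possible because each group has a single library, and no replicate could be left out. Merging abutting rows too, chosen after seeing the data, as was recomputing the list and promoter values under each setting, gave 5247 domains.

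Restricting EZH2 CPI-0209 to stretches under 2 rows left 358 regions with a median of 1.6 kb, 72.9% near a protein-coding end, 15.9% within 5 kb of EZH2 DMSO, 321 genes, 8 lists above the share of all genes and GGGCGG in 80.5% of promoters. Shortening the list to its widest rows left 1409 domains with a median of 6.4 kb, 57.8% near a protein-coding end, 17.2% within 5 kb and 1109 genes; both settings use fewer rows by construction. Joining gaps under 5 kb gave a median of 2.4 kb, 63.9% near an end and 2.92% within 5 kb, since it absorbs near domains by construction; joining gaps under 1 kb gave 9.92% within 5 kb. Keeping only domains at least 5 kb from the other lists gave 62.7% near an end and, by construction, 0% within 5 kb. Domains of 2 kb and wider had a median of 3.6 kb and 13.4% within 5 kb. The share near an end was 58.6% with windows of 1 kb, 66.1% with 5 kb and 49.1% with stranded starts, where retained domains gave 76.8%, 80.9% and 69.0%. Why these values moved was not tested. The other 40 values stayed within 1.5 times a count or within the limits of a share or median.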
